A study of Zea mays with 18 samples.

Results

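The 4 maize genes described here encode enzymes of ethylene synthesis. They are a SAM synthetase (Zm00001eb130870), an ACC synthase (Zm00001eb428490) and 2 ACC oxidases, Zm00001eb314610 on chromosome 7 and Zm00001eb418140 on chromosome 10. They are 4 of 55661 features measured, and all 4 were among the 27530 features kept for tests, those that reached 1 FPKM in 3 or more of the 18 libraries (FPKM scales fragments to gene length and library size). The genes were picked by identifier from the contrast of zmccd8 with WT roots under nitrogen deficiency (0N). Their values in every comparison that uses a 0N library therefore describe how they were chosen and carry no test.

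Plants make ethylene from methionine. SAM synthetase joins methionine to the adenosyl group of ATP and so forms S-adenosylmethionine (SAM), which is also the methyl donor of the cell and the source of polyamines and nicotianamine. ACC synthase turns SAM into 1-aminocyclopropane-1-carboxylate (ACC), usually the rate-limiting step, and ACC oxidase releases ethylene from ACC. The methylthioadenosine left by ACC synthase is recycled to methionine. In roots ethylene restrains elongation, and in maize it promotes the formation of aerenchyma, the air spaces of the cortex.

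Polyadenylated RNA of roots was measured in 3 libraries for each of 6 groups. The zmccd8 plants carry zmccd8::Ds, a single allele in the B73 background. A Ds element interrupts the third exon of ZmCCD8, a gene of strigolactone synthesis. WT plants were B73. All plants grew for 4 weeks in vermiculite. The groups were zmccd8 0N and WT 0N, fed a Hoagland solution in which 1 mM KNO3 was replaced by KCl; zmccd8 WS and WT WS (water stress), given the complete solution at transplanting and not watered again; and zmccd8 CT and WT CT (control), given the complete solution throughout. By the methods of the study, tissue of several plants was pooled for a replicate, and the libraries hold whole roots, so fewer cells of a type and less RNA per cell cannot be told apart in any value below.

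Reads rebuilt from the FPKM values summed to between 30104083 and 43429912 per library, and over the 18 libraries the 4 genes had medians of between 349.5 and 27791.5 reads each. Libraries of a group differed, and some stood apart. In zmccd8 0N replicate 2, 963 features lay more than 2-fold above or below both other libraries of the group after adding 1 FPKM, the most in any library. In WT 0N replicate 2 the number was 478, and that library was also high for 3 of the 4 genes. Root endodermis and stele markers (Casparian strip proteins, SHORT-ROOT and SCARECROW, 14 genes) summed to 49.1 to 103 FPKM in zmccd8 0N and 95.4 to 133 FPKM in WT 0N, to 31.4 to 58.1 FPKM in zmccd8 WS and 58.2 to 68.4 FPKM in WT WS, and to 139 to 177 FPKM in zmccd8 CT and 130 to 218 FPKM in WT CT. Leaf markers (11 genes, 6 to 8 above 0 in a library, and 3 phosphoenolpyruvate carboxylase genes at 0 in all) summed to 331 to 378 FPKM in zmccd8 WS and 291 to 345 FPKM in WT WS, and to between 128 and 225 FPKM in the other groups. Most of this came from a pair of phosphoenolpyruvate carboxylase genes. Both sums moved with the groups and their part in the results below was not tested. The 2 genes of the Rubisco small subunit, which defines green leaf tissue, had up to 5.502 and 2.49 FPKM over the 18 libraries (medians 0.361 and 0.173 FPKM). ZmCCD8 itself averaged 15.4 FPKM in zmccd8 0N and 60.9 FPKM in WT 0N, 23.3 FPKM in zmccd8 WS and 9.58 FPKM in WT WS, and 10.1 FPKM in zmccd8 CT and 6.24 FPKM in WT CT. Reads on both sides of the insertion are counted together, so this level checks no label.

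The SAM synthetase was by far the most abundant of the 4 genes and was lowest in zmccd8 0N and highest under WS. Zm00001eb130870 lies at chr3:59444036-59446493 on the minus strand of Zm-B73-REFERENCE-NAM-5.0, where RefSeq places the protein-coding gene SAMS1. It had 151, 106 and 198 FPKM in the zmccd8 0N libraries, against 294, 398 and 262 FPKM in the WT 0N libraries. Every zmccd8 0N library was below every WT 0N library, and also below every library of the other 4 groups. The WS libraries had 503, 538 and 537 FPKM in zmccd8 and 532, 566 and 392 FPKM in WT. The CT libraries had 347, 221 and 377 FPKM in zmccd8 and 266, 300.4 and 236 FPKM in WT. By group means the order was zmccd8 WS (526 ± 20.3 FPKM, SD, n = 3), WT WS (497 ± 92.3), WT 0N (318 ± 71.0), zmccd8 CT (315 ± 82.6), WT CT (267 ± 32.3) and zmccd8 0N (152 ± 45.7). Of the 5 pairs of neighbours in this order, only WT CT and zmccd8 0N did not overlap.

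A second feature with the same annotation, Zm00001eb130880, lies on the plus strand at chr3:59444075-59446603 and covers 98.4% of the span of the SAM synthetase gene. RefSeq has 1 protein-coding gene at the place. The libraries marked strand, but the strand setting used in counting is not given in the sources used here, so reads of the 2 features cannot be told apart with certainty. Reads on the plus-strand feature were between 2.998 and 11.6% of those on Zm00001eb130870 (median 4.95%) over the 18 libraries.

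The ACC synthase was a weakly expressed gene with 1 very high library. Zm00001eb428490 lies at chr10:138726155-138728831 on the plus strand and overlaps the RefSeq gene with the synonym acs7. It had 1.67, 1.58 and 3.04 FPKM in zmccd8 0N, against 4.87, 17.5 and 3.94 FPKM in WT 0N. The 3 zmccd8 0N libraries were below all WT 0N libraries, but the mean of WT 0N, 8.78 ± 7.59 FPKM (SD, n = 3), rested on replicate 2, which was 3.98 times the mean of the other 2. The other groups lay close together. There were 4.08, 5.98 and 5.87 FPKM in zmccd8 WS and 3.001, 4.48 and 7.44 FPKM in WT WS. In CT libraries the values were 7.26, 3.27 and 4.51 FPKM in zmccd8 and 4.30, 6.90 and 7.21 FPKM in WT. From high to low the order of means was WT 0N, WT CT (6.14 FPKM), zmccd8 WS (5.31 FPKM), zmccd8 CT (5.02 FPKM), WT WS (4.98 FPKM) and zmccd8 0N (2.10 FPKM), and each of the 5 pairs of neighbours overlapped.

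The ACC oxidase on chromosome 7 had the tightest 0N groups of the 4 genes. Zm00001eb314610 lies at chr7:129695760-129697548 on the minus strand. It had 4.83, 7.79 and 5.72 FPKM in zmccd8 0N, against 16.7, 14.3 and 15.6 FPKM in WT 0N, with no overlap. Under WS it had 31.0, 27.7 and 28.6 FPKM in zmccd8 and 40.4, 22.7 and 17.2 FPKM in WT. Under CT it had 4.09, 14.005 and 7.20 FPKM in zmccd8 and 9.16, 13.7 and 7.62 FPKM in WT. The WS libraries of both genotypes were above all others, and the WT 0N libraries were above all CT and zmccd8 0N libraries. The means fell in the order zmccd8 WS (29.1 FPKM), WT WS (26.8 FPKM), WT 0N (15.5 FPKM), WT CT (10.2 FPKM), zmccd8 CT (8.43 FPKM) and zmccd8 0N (6.11 FPKM). Of these neighbours, WT WS and WT 0N did not overlap, nor did WT 0N and WT CT, and the other 3 pairs did.

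The ACC oxidase on chromosome 10 had its lowest mean in zmccd8 0N and its highest means under WS in both genotypes. Zm00001eb418140 lies at chr10:92295828-92297588 on the plus strand. It had 3.35, 4.80 and 2.49 FPKM in zmccd8 0N, against 5.37, 15.7 and 4.93 FPKM in WT 0N. The groups did not overlap, but the gap was narrow, with 4.80 FPKM in the highest zmccd8 library and 4.93 FPKM in the lowest WT library. WS libraries had 27.9, 39.6 and 45.6 FPKM in zmccd8 and 32.1, 25.5 and 54.7 FPKM in WT. CT libraries had 12.7, 11.2 and 8.32 FPKM in zmccd8 and 18.4, 15.4 and 7.20 FPKM in WT. In order of means the groups were zmccd8 WS (37.7 FPKM), WT WS (37.5 FPKM), WT CT (13.7 FPKM), zmccd8 CT (10.7 FPKM), WT 0N (8.65 FPKM) and zmccd8 0N (3.55 FPKM). Only WT WS against WT CT and WT 0N against zmccd8 0N were pairs of neighbours without overlap. Other genes annotated as ACC oxidase lie near this one, Zm00001eb418130 at chr10:92246537-92289608 and Zm00001eb418090 at chr10:92088243-92089408. How reads matching several genes were counted is not given, so whether reads are shared among them is not known.

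**Figure D1:**
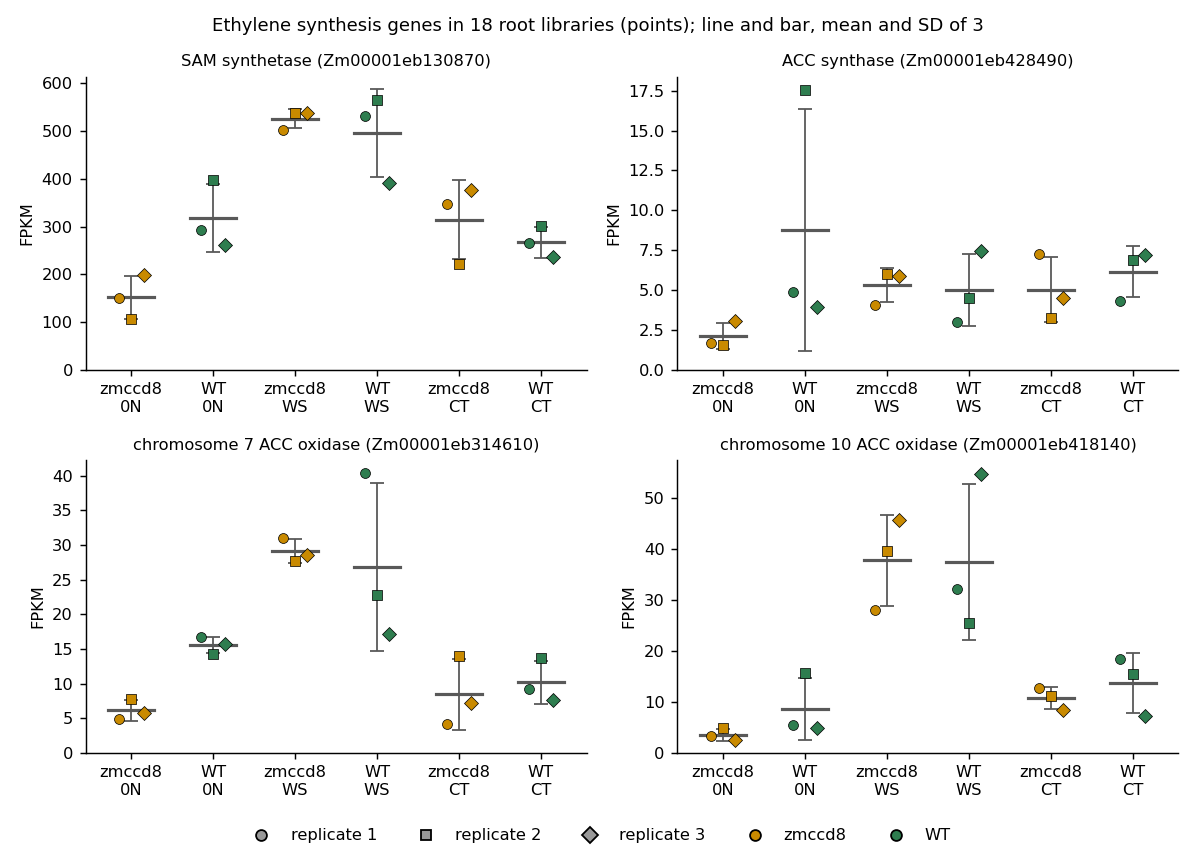
FPKM of the 4 genes (vertical axes, each starting at 0) in the 3 libraries of 6 groups, with zmccd8 in orange and WT in green. Points are libraries with a marker for each replicate number, and lines and bars are the mean and SD of 3. All 4 genes have their lowest mean in zmccd8 0N, and 3 of the 4 have their highest in zmccd8 WS.

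The 4 genes shared their lowest group, zmccd8 0N, which is the group that chose them. In the contrast of zmccd8 with WT under 0N, 4 of 4 genes had every zmccd8 library below every WT library, and so did 16.7% of all features tested. Differences were taken as means of log2(FPKM + 1), zmccd8 minus WT. They were −1.09 (standard error, SE, 0.27) for the SAM synthetase, −1.42 (SE 0.51) for the ACC synthase, −1.24 (SE 0.18) for the chromosome 7 ACC oxidase and −0.94 (SE 0.43) for the chromosome 10 ACC oxidase. In plain FPKM the zmccd8 mean was 0.477, 0.239, 0.393 and 0.410 times the WT mean for the genes in this order.

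WT 0N replicate 2 carried part of these differences for 3 genes. It was 1.43 times the mean of the other WT 0N libraries for the SAM synthetase, 3.98 times for the ACC synthase and 3.04 times for the chromosome 10 ACC oxidase, and it was the lowest of the group for the chromosome 7 ACC oxidase. Without it the log2 difference was −0.91 for the SAM synthetase, −0.83 for the ACC synthase, −1.29 for the chromosome 7 ACC oxidase and −0.47 for the chromosome 10 ACC oxidase. Without zmccd8 0N replicate 2, the library with the most features apart, the 4 values were −0.85, −1.31, −1.40 and −1.14. The direction was the same in each of the 6 fits without 1 library for each of the 4 genes. It could not turn, because the libraries of the 2 groups did not overlap, so this adds no support.

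Set against CT, the same 0N libraries did not give the same pattern for all 4 genes, again as a description. In zmccd8 the log2 difference of 0N from CT was −1.06 (SE 0.30) for the SAM synthetase, −0.93 (SE 0.31) for the ACC synthase and −1.38 (SE 0.25) for the chromosome 10 ACC oxidase, each with every 0N library below every CT library, as were 22.5% of all features. For the chromosome 7 ACC oxidase it was −0.29 (SE 0.39) with overlap, and 0.12 without zmccd8 CT replicate 2. In WT the value was 0.23 (SE 0.22) for the SAM synthetase and 0.22 (SE 0.51) for the ACC synthase, both with overlap. The ACC synthase value turned to −0.38 without WT 0N replicate 2. The chromosome 7 ACC oxidase was 0.60 (SE 0.21) with every 0N library above every CT library, as were 18.6% of all features. The chromosome 10 ACC oxidase was −0.68 (SE 0.50) with overlap, and −1.16 without WT 0N replicate 2.

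The change under 0N in zmccd8 minus that in WT was −1.29 (SE 0.38) for the SAM synthetase, −1.15 (SE 0.63) for the ACC synthase, −0.89 (SE 0.47) for the chromosome 7 ACC oxidase and −0.69 (SE 0.58) for the chromosome 10 ACC oxidase. Without WT 0N replicate 2 these were −1.12, −0.56, −0.95 and −0.22. Over all features this difference of differences was called for 0 of 27530 in limma, with 4804 at an unadjusted p under 0.05, and for 0 by voom. The count of 0 depended on single libraries, with 134 called without zmccd8 0N replicate 3, 5 without zmccd8 CT replicate 2 and 1 without zmccd8 CT replicate 3. These comparisons share the 0N libraries, so their values are not independent of each other.

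The contrast that picked the genes used no CT or WS library, so the genotypes were compared by a test there, although the choice was made with earlier results of these data known. A gene was called at a limma p of 0.05 or less after Benjamini-Hochberg adjustment over the 27530 features, if the log2 difference was also at least 1 in size. In CT roots none of the 4 genes was called for zmccd8 against WT, and 0.835% of all features were. None had an unadjusted p under 0.05 there or under WS, and voom, a limma method for reads, called none in either. Libraries of the genotypes overlapped for each of the 4, and did not for 12.1% of all features. The log2 differences with 95% intervals were 0.21 (−0.39 to 0.80, adjusted p = 0.920) for the SAM synthetase and −0.27 (−0.95 to 0.41, adjusted p = 0.901) for the ACC synthase. They were −0.35 (−1.28 to 0.58, adjusted p = 0.910) for the chromosome 7 ACC oxidase and −0.25 (−1.02 to 0.52, adjusted p = 0.928) for the chromosome 10 ACC oxidase. Below 0 the intervals of both ACC oxidases reached past 1 in size, so a difference of that size was not excluded. Without zmccd8 CT replicate 1 the value of the chromosome 7 gene was 0.028.

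In WS roots none of the 4 was called either, and 0.901% of all features were. The libraries of the genotypes overlapped for each of the 4 genes, and did not for 20% of all features. Values in zmccd8 minus WT were 0.10 (−0.32 to 0.52, limma adjusted p = 0.854) for the SAM synthetase and 0.13 (−0.54 to 0.81, adjusted p = 0.883) for the ACC synthase. For the ACC oxidases they were 0.20 (−0.45 to 0.86, adjusted p = 0.801) on chromosome 7 and 0.05 (−0.64 to 0.75, adjusted p = 0.956) on chromosome 10. The bounds of the 4 intervals ran from −0.64 to 0.86. The sign of these small values was not steady. It turned without WT WS replicate 3 for the SAM synthetase (−0.062) and the chromosome 7 ACC oxidase (−0.059) and without WT WS replicate 1 for the ACC synthase (−0.12). For the chromosome 10 ACC oxidase it turned without WT WS replicate 1 (−0.02), WT WS replicate 2 (−0.18) or zmccd8 WS replicate 3 (−0.09).

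Transcripts of both ACC oxidases rose under water stress in both genotypes. In zmccd8 the chromosome 7 gene rose by 1.81 on the log2 scale (0.97 to 2.65, limma adjusted p = 0.00785) and the chromosome 10 gene by 1.71 (1.20 to 2.22, adjusted p = 0.00132). In WT the rise was 1.26 (0.46 to 2.07, adjusted p = 0.0260) for the chromosome 7 gene and 1.41 (0.47 to 2.35, adjusted p = 0.0307) for the chromosome 10 gene. In plain FPKM the WS mean was 3.45 and 3.51 times the CT mean in zmccd8 for the chromosome 7 and chromosome 10 genes, and 2.63 and 2.74 times in WT. For both genes every WS library lay above every CT library in both genotypes, which held for 25.2% of all features in zmccd8 and 26.2% in WT. So 2 of the 4 genes were called higher in each genotype, against 6.24% of all features in zmccd8 and 7.41% in WT.

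The SAM synthetase was also higher under WS, by less than the set difference of 1. Its log2 difference was 0.78 in zmccd8 (0.25 to 1.303, limma adjusted p = 0.0329) and 0.88 in WT (0.37 to 1.39, adjusted p = 0.0195), with every WS library above every CT library in each genotype. Over the fits without 1 library its adjusted p ran between 0.0325 and 0.0989 in zmccd8 and between 0.0167 and 0.0806 in WT. An adjusted p of 0.05 or less, at any size of difference, was reached by 36.7% of all features in zmccd8 and 37.8% in WT. The ACC synthase, between these enzymes in the pathway, was not called. Its difference was 0.11 in zmccd8 (−0.52 to 0.74, adjusted p = 0.780) and −0.30 in WT (−1.05 to 0.45, adjusted p = 0.487), with overlapping libraries in both. Without zmccd8 CT replicate 2 the value in zmccd8 was −0.11.

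The calls in zmccd8 held without each library in turn, with a limma adjusted p between 0.00104 and 0.0317 for the chromosome 7 gene and between 0.00211 and 0.00787 for the chromosome 10 gene. The calls in WT did not. For the chromosome 7 gene the adjusted p was 0.0727 without WT CT replicate 1, 0.0798 without WT CT replicate 3, 0.0566 without WT WS replicate 1 and 0.0539 without WT WS replicate 2, at log2 differences of 1.22, 1.10, 0.93 and 1.33. For the chromosome 10 gene it was 0.0560 without WT CT replicate 2, 0.0622 without WT CT replicate 3, 0.0706 without WT WS replicate 1 and 0.0793 without WT WS replicate 3, at differences of 1.54, 1.04, 1.48 and 1.11. The SAM synthetase was called in WT without WT WS replicate 3, at 1.04 and an adjusted p of 0.0167.

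Whether the genotypes differed in their response to WS was tested directly. The change in zmccd8 minus that in WT was −0.11 (−0.77 to 0.56, limma adjusted p = 0.953) for the SAM synthetase and 0.40 (−0.52 to 1.33, adjusted p = 0.856) for the ACC synthase. It was 0.55 (−0.58 to 1.68, adjusted p = 0.835) for the chromosome 7 ACC oxidase and 0.30 (−0.73 to 1.33, adjusted p = 0.908) for the chromosome 10 ACC oxidase. None of the 4 was called or had an unadjusted p under 0.05, voom called none of them, and 0.0218% of all features (6 features) were called. Without zmccd8 CT replicate 3 the value of the SAM synthetase was 0.042. The intervals of the ACC synthase and both ACC oxidases include 1, so a change larger in zmccd8 by that much was not excluded with 3 libraries a group.

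**Figure D2:**
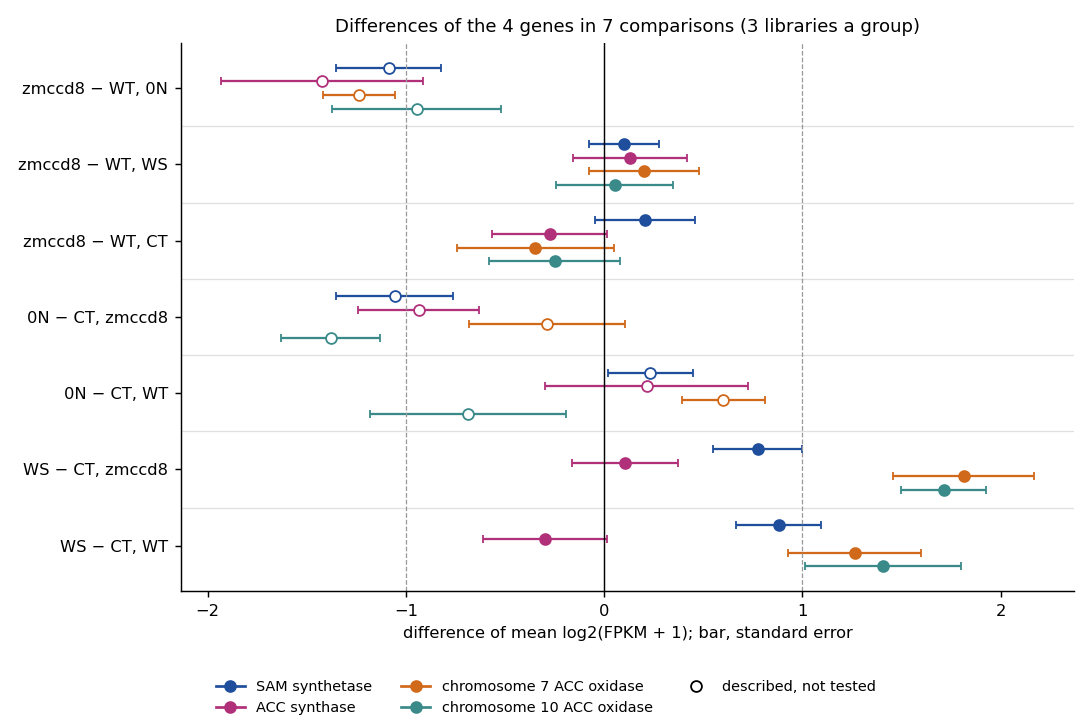
Differences of mean log2(FPKM + 1) for the 4 genes (horizontal axis) in 7 comparisons (vertical axis), as points with bars of 1 standard error. Open points use 0N libraries and were not tested, and dashed lines mark the set difference of 1. The 4 genes lie between −1.42 and −0.94 in zmccd8 minus WT under 0N and between 0.05 and 0.20 under WS, and both ACC oxidases lie between 1.26 and 1.81 in WS minus CT.

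Each enzyme is made by several genes in maize, so the 4 genes were set beside the rest of their families. By annotation the families held 21 other genes, 12 of which passed the filter on low values. In zmccd8 against WT under 0N, 0 of these 12 were called in limma or by voom, with 2 at an unadjusted p under 0.05, against 1.57% of all features called. Their median log2 difference was −0.51, with 11 of 12 below 0, where the median of all features was −0.015. The 12 are not all separate genes with certainty. They include Zm00001eb130880, whose reads may be mixed with those of Zm00001eb130870, and the neighbours Zm00001eb378300 and Zm00001eb378320, which share a RefSeq gene. Of the 12, 2 had every zmccd8 library below every WT library, as did 16.7% of all features.

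All 4 other SAM synthetase genes were below 0 in that contrast. Among them is the plus-strand feature Zm00001eb130880, whose value is not independent of the gene described here if their reads are mixed. Zm00001eb340450, annotated as SAM synthetase 2 and on chromosome 8, averaged 59.8 FPKM in zmccd8 0N and 116 FPKM in WT 0N, with a log2 difference of −1.01 (SE 0.36) that was not called (limma adjusted p = 0.153). The most abundant family member in CT, Zm00001eb354640, averaged 325 FPKM in zmccd8 0N and 350 FPKM in WT 0N, a difference of −0.12 (SE 0.23, adjusted p = 0.753). Zm00001eb130870 supplied 26.5 ± 0.60% of the FPKM of all SAM synthetase genes in zmccd8 0N and 37.8 ± 3.03% in WT 0N (SD, n = 3). Its share was 45.6 ± 1.59% in zmccd8 WS and 41.9 ± 0.93% in WT WS, and 29.6 ± 3.66% in zmccd8 CT and 24.9 ± 4.48% in WT CT.

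Among ACC synthases, Zm00001eb428490 was not the most abundant. Zm00001eb378300 on chromosome 9 averaged 20.1 ± 3.71 FPKM in zmccd8 0N and 19.5 ± 1.98 FPKM in WT 0N (SD, n = 3), a log2 difference of 0.03. In zmccd8 it rose under 0N over CT by 1.06 (SE 0.21, limma adjusted p = 0.0308), where CT libraries averaged 9.22 ± 2.36 FPKM, and the call held in 2 of 6 fits without 1 library. In WT the same change was 0.45 (SE 0.14, adjusted p = 0.0847). Zm00001eb378320 lies beside it within the same RefSeq gene, so the 2 features may be parts of 1 gene. The weak Zm00001eb055950 fell under 0N in zmccd8 by 1.08 (SE 0.27, adjusted p = 0.0424), to 0.208 FPKM, against 1.601 FPKM in zmccd8 CT, and its call also held in 2 of 6 such fits. The share of Zm00001eb428490 in the FPKM of the family was 8.33 ± 3.53% in zmccd8 0N and 22.7 ± 15.7% in WT 0N, where replicate 2 had 40.8% and the other libraries 15.2 and 12.2%. In the other groups its mean lay between 18.2 and 25.1%.

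The 2 ACC oxidases described here were minor genes of their family except under WS. Zm00001eb201390 on chromosome 4, the most abundant annotated one in CT, averaged 295 ± 134 FPKM in zmccd8 0N, 336 ± 129 FPKM in WT 0N, 5.70 ± 0.81 FPKM in zmccd8 WS, 8.22 ± 3.57 FPKM in WT WS, 125 ± 32.8 FPKM in zmccd8 CT and 104 ± 48.0 FPKM in WT CT (SD, n = 3). Under WS it fell by 4.21 in zmccd8 (SE 0.20, limma adjusted p = 2.85e-05) and by 3.44 in WT (SE 0.43, adjusted p = 0.00177), the opposite of both genes described here. Both calls held in 6 of 6 fits without 1 library. A feature assembled from the reads on chromosome 5, chr5:219171274-219173780, is also annotated as an ACC oxidase and is named after its values were seen. It rose under 0N over CT by 1.41 in zmccd8 (adjusted p = 0.0355) and by 1.31 in WT (adjusted p = 0.0394), and each call held in 1 of 6 fits without 1 library.

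The make-up of ACC oxidase transcripts differed between conditions. Shares were taken of the summed FPKM of the annotated ACC oxidase genes and the assembled feature on chromosome 5. A single-transcript feature with that annotation that passed the filter, Zm00001eb418130_T002_gene, was left out of the sums. The chromosome 7 and chromosome 10 genes together supplied 2.06 ± 0.67% in zmccd8 0N and 5.29 ± 2.85% in WT 0N (SD, n = 3). They supplied 48.3 ± 2.56% in zmccd8 WS and 43.4 ± 15.3% in WT WS, and 8.15 ± 0.58% in zmccd8 CT and 11.1 ± 0.63% in WT CT. Their summed level was 66.8 ± 7.64 FPKM in zmccd8 WS and 64.2 ± 13.8 FPKM in WT WS, against 19.2 ± 5.26 FPKM in zmccd8 CT and 23.8 ± 7.84 FPKM in WT CT. The sum of the other ACC oxidase genes and the assembled feature was 71.4 ± 8.92 FPKM in zmccd8 WS and 90.4 ± 42.3 FPKM in WT WS. It was 214 ± 46.1 FPKM in zmccd8 CT and 188 ± 54.1 FPKM in WT CT. Of the 12 other synthesis genes, 1 was called under WS in each genotype (Zm00001eb201390 in both), against 16.6% of all features in zmccd8 and 17.8% in WT.

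**Figure D3:**
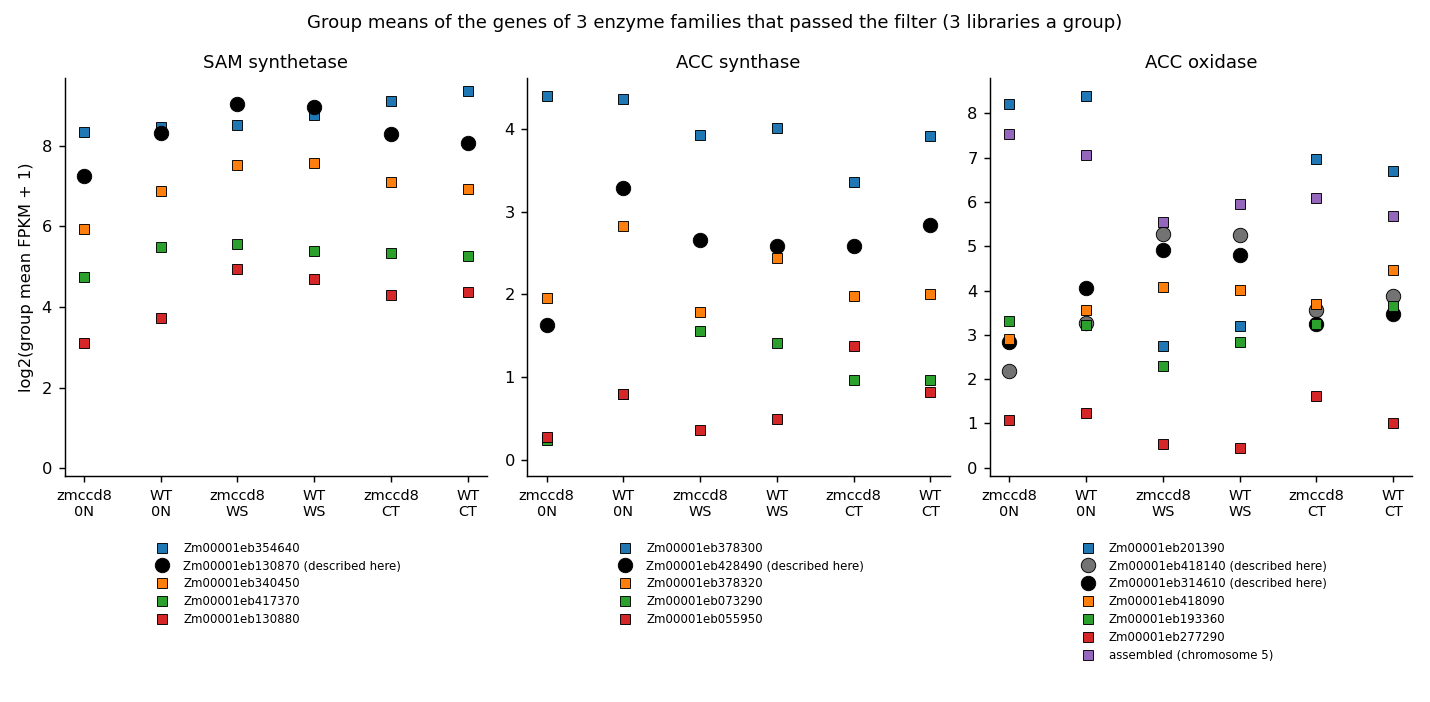
Group means as log2(FPKM + 1) (vertical axis) in 6 groups (horizontal axis) of the SAM synthetase, ACC synthase and ACC oxidase genes that passed the filter, with the assembled feature on chromosome 5 added. Large circles are the 4 genes and squares the others. The chromosome 7 and chromosome 10 ACC oxidases lie above Zm00001eb201390 in the WS groups and below it in the other 4 groups.

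**Figure D4:**
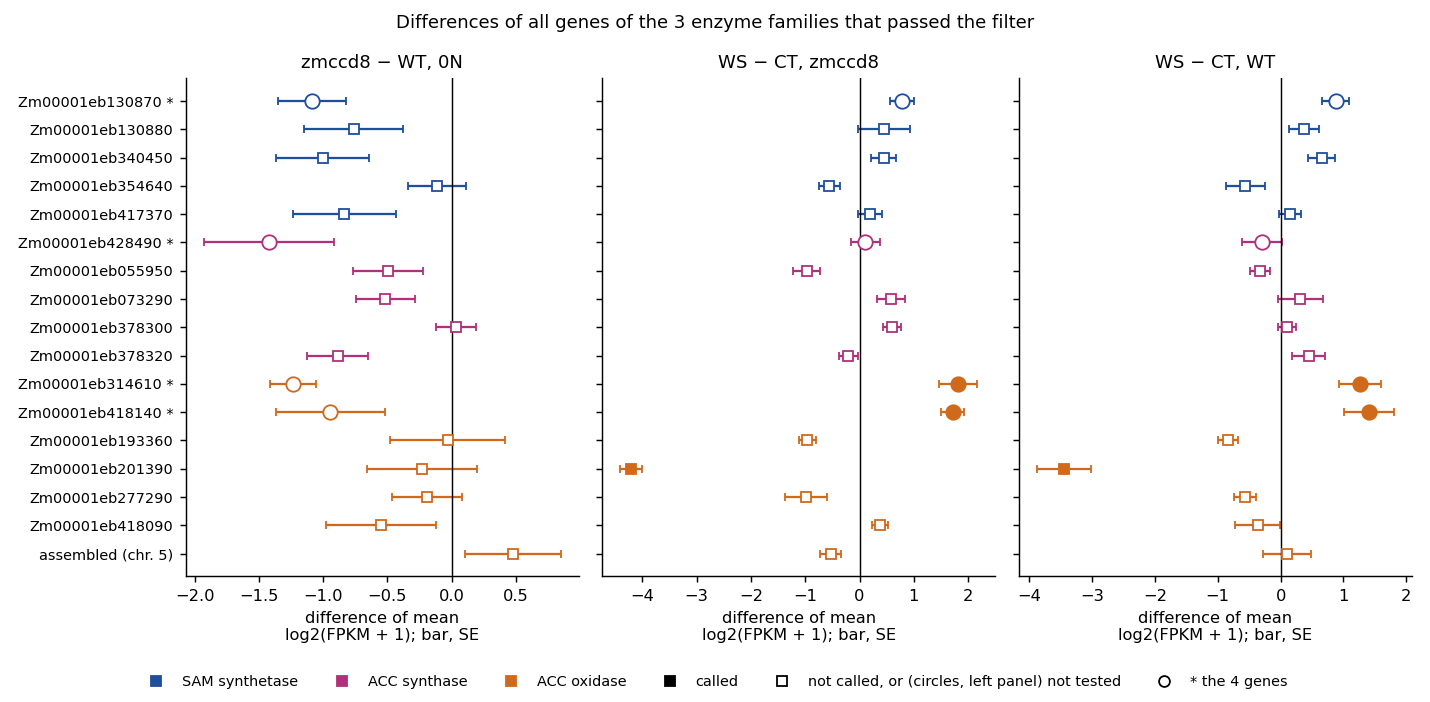
Differences of mean log2(FPKM + 1) with bars of 1 standard error (horizontal axes) for the same genes (vertical axis) in zmccd8 minus WT under 0N and in WS minus CT of each genotype. Circles with a star are the 4 genes, and filled symbols were called. Under WS Zm00001eb201390 lies at −4.21 in zmccd8 and −3.44 in WT, while the 2 starred ACC oxidases lie between 1.26 and 1.81.

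The steps around synthesis were taken from lists of annotation words. With the families above, these lists held 101 other genes, and 67 passed the filter. In zmccd8 against WT, the lists had 0 called genes under CT (0 also by voom, and 6 at an unadjusted p under 0.05), 1 under 0N and 1 under WS in limma. Over all features 0.835% were called under CT, 1.57% under 0N and 0.901% under WS, so these counts were near the background. Both called genes were nicotianamine synthases, which use SAM to make the iron chelator nicotianamine. Zm00001eb218440 fell by 1.10 under 0N (SE 0.19, adjusted p = 0.0456), averaging 0.590 FPKM in zmccd8 0N and 2.36 FPKM in WT 0N. Zm00001eb218430, with the same annotation, covers its place on the opposite strand, so reads of these features may be mixed. Zm00001eb331330 rose by 1.31 under WS (SE 0.18, adjusted p = 0.0206), with 89.4 FPKM in zmccd8 WS and 35.5 FPKM in WT WS. Each of these calls held in 1 of 6 fits without 1 library.

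Under 0N against CT, 3 of the 67 genes were called in zmccd8 (1 higher, 2 lower), against 7.37% of all features, and 1 in WT, against 4.76%. The number over all features depended on single libraries. In zmccd8 it was 119 without zmccd8 CT replicate 3, 173 without zmccd8 CT replicate 1, 189 without zmccd8 0N replicate 1 and 505 without zmccd8 0N replicate 2, against 2029 with all. In WT it was 326 without WT 0N replicate 1, 605 without WT 0N replicate 3, 676 without WT CT replicate 3 and 728 without WT 0N replicate 2, against 1311 with all. The gene called in WT was the methylthioadenosine nucleosidase Zm00001eb036610, which starts the recycling of methionine. It fell by 1.98 (SE 0.41, limma adjusted p = 0.0376), with 34.1 FPKM in WT 0N and 152 FPKM in WT CT, and the call held in 1 of 6 fits without 1 library. In zmccd8 its difference was −0.93 and not called. In zmccd8 the nicotianamine synthase Zm00001eb331330 fell by 1.13 (adjusted p = 0.0250, held in 2 of 6 such fits), beside the ACC synthases Zm00001eb378300 and Zm00001eb055950 given above.

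Under WS against CT, 16 of the 67 were called in zmccd8 (5 higher, 11 lower), against 16.6% of all features, and 18 in WT (4 higher, 14 lower), against 17.8%. Of the 6 methionine recycling genes tested, 2 fell in zmccd8 and 3 in WT, and the median log2 difference was −0.35 in zmccd8 and −1.07 in WT, where the medians of all features were −0.0015 and −0.0075. The calls of Zm00001eb036610 in zmccd8 and of the methylthioribose kinase Zm00001eb433310 in WT each held in 1 of 6 fits without 1 library. The bifunctional dehydratase and enolase-phosphatase Zm00001eb169620 fell by 1.93 in zmccd8 and by 2.34 in WT (limma adjusted p = 0.00428 and 0.00568). Of 11 nicotianamine synthase genes, 6 fell and 4 rose in zmccd8, and 7 fell and 2 rose in WT. One of them, Zm00001eb396110, fell by 6.30 in zmccd8 and fell by 5.99 in WT. Reads may be shared among copies of this family, so values of its single genes are uncertain. Among the 11 are features that overlap on opposite strands, Zm00001eb052890 with Zm00001eb052900 and Zm00001eb014700 with Zm00001eb014710. Their reads may be mixed, and a place may be counted more than once in these numbers.

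Of 26 perception and signalling genes tested, 3 were called under WS in zmccd8, against 16.6% of all features, and 5 in WT, against 17.8%. The 26 do not cover the pathway. The annotation words did not match RAN1, a copper transporter needed by the receptors, and genes annotated as ETHYLENE-INSENSITIVE 2 were listed apart. Of these, 3 were tested and 0 were called under WS in either genotype. None of 8 ethylene receptor genes was called in any of the 7 comparisons, with between 0 and 4 at an unadjusted p under 0.05. By voom 1 receptor gene was called in 3 of the comparisons (0N against CT in zmccd8, and WS against CT in zmccd8 and in WT). CTR1 is a negative regulator of the pathway in Arabidopsis. Of the CTR1 kinase genes that passed the filter, only Zm00001eb071130 was called under WS, and Zm00001eb096080 and Zm00001eb242490 were not. Zm00001eb071130 fell by 1.01 in zmccd8 (limma adjusted p = 0.00635) and by 1.03 in WT (adjusted p = 0.00471). The call held in 4 of 6 fits without 1 library in each genotype. Of the EIN3-like transcription factor genes, Zm00001eb111680 fell by 1.42 in zmccd8 and by 1.06 in WT, while Zm00001eb081010 rose by 2.04 in zmccd8 and by 1.88 in WT, to 4.69 and 4.79 FPKM. Zm00001eb081000, with the same annotation, covers the place of Zm00001eb081010 on the opposite strand, so their reads may be mixed. REVERSION-TO-ETHYLENE SENSITIVITY1 Zm00001eb294260, which acts with the receptors in Arabidopsis, fell in WT by 1.34 (adjusted p = 0.00152). Its difference in zmccd8 was −0.73, smaller than the set difference of 1 and so not called. It was also lower under WS there, with 13.7 to 15.2 FPKM in zmccd8 WS and 22.4 to 30.6 FPKM in zmccd8 CT. The 4 annotated regulators of ACC synthase turnover that passed the filter were called in no comparison by limma or voom, with 0 to 2 of them at an unadjusted p under 0.05.

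Features with a pattern like each gene were ranked by Pearson's r of log2(FPKM + 1) over the 18 libraries, as a description. The points share their libraries and groups. The SAM synthetase was most like a phenylalanine ammonia-lyase gene, Zm00001eb247630 (r = 0.962), an enzyme at the entry of phenylpropanoid synthesis, and next most like the other SAM synthetase Zm00001eb340450 (r = 0.958). The ACC synthase was most like a xyloglucan endotransglucosylase gene, Zm00001eb251370 (r = 0.899). For the chromosome 7 ACC oxidase the nearest was WRKY transcription factor 1, Zm00001eb052670 (r = 0.903), and the third was 9-cis-epoxycarotenoid dioxygenase 1, Zm00001eb218680 (r = 0.890), an enzyme of abscisic acid synthesis. For the chromosome 10 ACC oxidase it was a cytochrome P450 89A2 gene, Zm00001eb043620 (r = 0.962), followed among named genes by TIFY 11c, Zm00001eb005990 (r = 0.941). Of the 5 nearest genes, 1 or 2 stayed among the nearest 5 by Spearman's rho, and 1, 1, 0 and 0 stayed without the 6 libraries of 0N.

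Among themselves the 4 genes were not alike to the same degree. The values of r include the 0N libraries of the contrast that picked the genes. They are therefore a description and no independent support for likeness. Over the 18 libraries r was 0.805 between the SAM synthetase and the chromosome 10 ACC oxidase, 0.718 between the ACC oxidases and 0.714 between the SAM synthetase and the chromosome 7 ACC oxidase. The ACC synthase stood apart, with r of 0.527 to the SAM synthetase, 0.425 to the chromosome 10 ACC oxidase and 0.154 to the chromosome 7 ACC oxidase.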

How the data were processed

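Roots of 6 groups were measured in 3 libraries each. The authors trimmed reads (fastp, with Trimmomatic also listed), aligned them to Zm-B73-REFERENCE-NAM-5.0 with HISAT2 2.0.5, assembled transcripts with StringTie, counted reads with featureCounts and deposited FPKM values, the unit used here. How reads matching several genes or either strand were counted is not given in the sources used here. Columns were matched to groups by library name. A blank row of the 55662 was not used.

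FPKM times gene length gave whole reads for 100% of values (tolerance 0.01), used for depth and 1 alternative only. At this depth counting error is small for the 4 genes, the lowest value being 97 reads. A pseudocount of 1 was added, features that reached 1 FPKM in fewer than 3 libraries were left out, and limma 3.58.1 (R 4.3.3) with a mean-variance trend compared log2 values, two-sided, within the libraries of each comparison. Fold changes on this scale understate those of weak genes. Tables and plots used Python 3.11.15, pandas 2.3.3 and matplotlib 3.10.9. The procedure was tested on simulated data.

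Lists were made from words of the annotation, and RefSeq genes of the same assembly were matched by position. Named from other lists were up to 4 genes each, those called in most comparisons. The members and lists were chosen with earlier results of these data known. Replicates are separate samples by the labels. Residuals of libraries with the same number correlated above 0.1 in all 3 pairs only for WS against CT in zmccd8 (0.135, 0.224 and 0.253), and the block there changed no call of the 4 genes. Alternatives were another pseudocount (0.1), no filter, a mean of at least 5 FPKM, all 18 libraries in one fit, the median of ratios, no trend, the replicate block, voom with the rebuilt reads, a call by the adjusted p with no minimum difference, and fits that omit 1 library.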

Additional observations from a re-analysis of the deposited data

Results flagged for a closer look

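The chromosome 7 ACC oxidase, Zm00001eb314610, differed from CT in opposite directions under 0N in the genotypes. Every zmccd8 0N library (4.83, 7.79 and 5.72 FPKM) lay below the zmccd8 CT mean of 8.43 FPKM, and every WT 0N library (16.7, 14.3 and 15.6 FPKM) lay above the WT CT mean of 10.2 FPKM. The change in zmccd8 minus that in WT was −0.89 on the log2 scale. This difference was not tested, because these libraries took part in choosing the gene. The zmccd8 0N and zmccd8 CT libraries overlapped, and the change in zmccd8 was 0.12 without zmccd8 CT replicate 2.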

How the results depend on the processing

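For 20 tested results, 174 of 180 values of the 4 genes under alternatives that kept every library kept direction and side of the threshold. Of described values, 128 of 128 lay within 1 pooled within-group SD of the main value (threshold side not scored). Most settings cannot move a difference of means, so this adds no support. For the chromosome 10 ACC oxidase, zmccd8 minus WT under 0N went from −0.94 to −1.13. Without the filter, which adds many features near 0, the WS calls were lost for the chromosome 7 ACC oxidase Zm00001eb314610 in zmccd8 (1.81, limma adjusted p = 0.0613) and in WT (1.26, adjusted p = 0.117) and for the chromosome 10 ACC oxidase Zm00001eb418140 in WT (1.41, adjusted p = 0.135). By adjusted p alone the SAM synthetase passed under WS in zmccd8 (0.78) and in WT (0.88). Over the alternatives the limma adjusted p of the WS change in WT ran between 0.00592 and 0.117 on chromosome 7 and between 0.00862 and 0.135 on chromosome 10, and in zmccd8 between 0.000474 and 0.0613 and between 0.000730 and 0.0181. With a replicate block the chromosome 10 gene was not called in WT (1.41, adjusted p = 0.0717), where the numbers do not pair libraries, and the block changed no other call of the 4 genes.

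Counts of the 67 other listed genes were less stable. For zmccd8 against WT the 1 call under 0N became 0 with a pseudocount of 0.1, no filter, a mean of at least 5 FPKM, the replicate block or voom, and the 1 call under WS became 0 without the filter. For 0N against CT in WT (1 call) there were 4 with a pseudocount of 0.1, 0 without the filter, 3 at a mean of at least 5 FPKM, 10 with all 18 libraries, 0 with the replicate block, 5 by voom and 7 by adjusted p alone. In zmccd8 (3 calls) there were 6 with a pseudocount of 0.1, 0 without the filter, 6 with all 18 libraries, 7 with the replicate block, 8 by voom and 10 by adjusted p alone. For WS against CT there were 11 in WT without the filter and 29 in each genotype by adjusted p alone. Over all features, called numbers moved by more than 1.5 times under several settings. For zmccd8 against WT, without the filter there were 80 under CT, 161 under 0N and 91 under WS, and at a mean of at least 5 FPKM, which tests fewer features, 84, 184 and 105, against 230, 433 and 248. Under 0N there were also 1443 with all 18 libraries and 131 with the replicate block. For 0N against CT there were 55 in zmccd8 and 238 in WT without the filter and 601 in WT with the replicate block, against 2029 in zmccd8 and 1311 in WT. For WS against CT there were 2866 in zmccd8 and 3137 in WT at a mean of at least 5 FPKM, against 4565 and 4893. By adjusted p alone there were 4508 in zmccd8 and 2464 in WT for 0N against CT and 10102 in zmccd8 and 10404 in WT for WS against CT. The genotype by WS interaction (6) had 0 with a pseudocount of 0.1 or voom, 2 at a mean of at least 5 FPKM or with the block and 17 with all 18 libraries, and that with 0N (0) had 2 without the filter and 19 with all 18 libraries. The causes were not tested.

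Leaving out 1 library gave log2 differences of zmccd8 minus WT under 0N between −1.30 and −0.85 for the SAM synthetase, −1.78 and −0.83 for the ACC synthase, −1.40 and −1.10 for the chromosome 7 and −1.21 and −0.47 for the chromosome 10 ACC oxidase. Under CT the ranges were 0.06 to 0.44, −0.53 to −0.05, −0.75 to 0.028 and −0.62 to −0.00305 in this order, and under WS −0.062 to 0.20, −0.12 to 0.41, −0.059 to 0.53 and −0.18 to 0.36. For WS against CT they were 0.54 to 0.92, −0.11 to 0.36, 1.44 to 2.22 and 1.56 to 1.91 in zmccd8 and 0.78 to 1.04, −0.58 to −0.04, 0.93 to 1.53 and 1.04 to 1.66 in WT, and for their difference −0.34 to 0.042, 0.15 to 0.69, 0.17 to 0.95 and 0.06 to 0.68. Called listed genes numbered 0 to 1 for zmccd8 against WT under CT, 0 to 1 under 0N and 0 to 2 under WS. They numbered 0 to 11 for 0N against CT in zmccd8 and 0 to 10 in WT, 14 to 18 for WS against CT in zmccd8 and 15 to 18 in WT, and 0 for both interactions. Over all features the calls without 1 library numbered 131 (without WT CT replicate 1) to 178 for zmccd8 against WT under CT, 171 (without WT 0N replicate 1) to 984 (without zmccd8 0N replicate 3) under 0N and 152 (without WT WS replicate 1) to 233 under WS. They numbered 119 to 2707 for 0N against CT in zmccd8 and 326 to 1147 in WT, 3950 to 4941 for WS against CT in zmccd8 and 4421 to 4856 in WT, 0 to 134 for the 0N and 2 to 7 for the WS interaction. The widest tested interval of the 4 genes, that of the chromosome 7 ACC oxidase in the WS interaction, ran from −0.58 to 1.68.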
